A study of Mus musculus with 6 samples.

Results

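The FoxO family and a set of genes known as its targets were described in mouse colon mucosa, over 33 genes chosen by name and grouped by what they do. Members were the probes of the authors' value table whose single gene symbol was one of the 33. Of 46632 probes on the array, 58 probes of 30 members were found, and Sesn1, Cited2 and Irs2 had none. Of these, 35 probes of 23 members were above background (detection p under 0.01) on at least 1 of 6 arrays and entered the tests, among 11749 such probes of 8938 genes in all. On all 6 arrays 27 probes of 19 members were above background, and 8 probes were so on 1 to 5 arrays.

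Each of the 6 Illumina bead arrays held RNA pooled from 5 mice of strain FVB/N6 aged 8 weeks. The 2 genotypes were wild type (WT) and foxo4 knock out (Foxo4_KO), and each was left untreated, given an enema of 50% ethanol, or given trinitrobenzenesulfonic acid (TNBS) in 50% ethanol. The TNBS amount is labelled 250 mg without the quantity it refers to, and the treated mice were sampled on day 2. TNBS is a hapten widely used to provoke colitis in rodents, and ethanol is its vehicle. The sources used here do not say how the knockout was made or what sex the mice were. Each group was 1 pool with no replicate, so pool-to-pool differences carry no test, and the small number of arrays limits how precise any value can be. Tested effects come from limma on an additive model, where treatments serve as stand-in replicates of a genotype and genotypes as those of a treatment. Values are background-corrected, quantile-normalized signals on the log2 scale, levels are compared only within a probe, and the values of WT or of Foxo4_KO are listed in the order untreated, ethanol, TNBS. Gadd45b, Insr probe 1, Pck1 probe 1 and Rictor probe 5 passed the filter on low signal through the Foxo4_KO TNBS pool alone, and Sesn3 probe 2 through the untreated Foxo4_KO pool alone. Where such a probe is counted as high in that pool or genotype, the filter favoured the count and its other values are at background. Nothing is read from such a count. Values of these probes are printed as description only, and the folds of Gadd45b as lower bounds.

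Mean raw signal per array was 225.3 to 276.7, and 11181 to 14363 probes were above background. The Foxo4_KO TNBS pool stood apart, with a correlation of 0.946 to 0.967 across probes with the other arrays, against 0.973 to 0.985 among the others, so estimates that rest on it are also given without it. Of 12 colon epithelium markers, 10 were above background, and their summed linear signal was 58357 to 69880 over the 6 pools. Krt8 and Car1 were not above background on any array. Summed signals of the detected smooth muscle markers (8 of 10) were 3020, 3343 and 8386 in WT, against 3203, 20689 and 17851 in Foxo4_KO. Those of neutrophil markers (4 of 6) were 66, 265 and 377 in WT, against 61, 62 and 4041 in Foxo4_KO, and those of Paneth cell markers (5 of 6) were 161, 902 and 7796 in WT, against 1356, 1142 and 27146 in Foxo4_KO. The neutrophil sum of 4041 is mostly S100a8 and S100a9, at 11.25 and 10.55 (log2) in that pool, where Mmp9 read 6.86 and Csf3r 5.57. Xist, which is expressed from the inactive X chromosome of females, read 9.85, 5.64 and 5.50 in WT, against 10.36, 5.56 and 7.51 in Foxo4_KO. Both untreated pools were thus highest for Xist, so sex and treatment cannot be told apart in contrasts against untreated mice. By the detected probe the Foxo4_KO TNBS pool came next, at 7.51 against 5.50 in WT TNBS and 5.56 in Foxo4_KO ethanol. In comparisons with that pool, sex cannot be told apart from genotype or treatment either.

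FoxO proteins are forkhead transcription factors that insulin and growth factors hold in the cytoplasm, because AKT phosphorylates them and 14-3-3 proteins then bind them. When that signal falls or stress kinases act, they enter the nucleus and switch on genes for cell cycle arrest, cell death, antioxidant defence, autophagy and fasting metabolism. Many of these genes answer to other factors as well, and Foxo1, Foxo3 and Foxo4 overlap in the sites they bind.

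RefSeq promoter windows (build GRCm38.p6) were at hand for 29 of the 33 members, in 35 windows that run from upstream to just past a transcription start. The forkhead motif GTAAACA, or TGTTTAC on the other strand, was in 5 of the 35 windows and in 3.65% of all 32851 windows of that length. Those 5 belong to Bbc3, Bcl2l11, Btg1, Sesn1 and Txnip, of which Btg1 and Txnip were above background. A second motif, CAAAACA or TGTTTTG, was in the windows of Ccng2 and Irs2 and in 6.28% of all windows. The windows of Btg1 and Txnip are shown because they carry the first motif, in capitals, and that of Pdk4, in which neither motif is spelled, because Btg1 and Pdk4 were the members at least 2-fold lower with TNBS than with ethanol in Foxo4_KO. Each is written 5′ to 3′ along its gene. The Btg1 window is chr10:96616751-96617050 on the plus strand with the motif at position −204 from the start. That of Txnip is chr3:96557707-96558006 on the plus strand with the motif at −121, and that of Pdk4 is chr6:5496229-5496528 on the minus strand.
Btg1: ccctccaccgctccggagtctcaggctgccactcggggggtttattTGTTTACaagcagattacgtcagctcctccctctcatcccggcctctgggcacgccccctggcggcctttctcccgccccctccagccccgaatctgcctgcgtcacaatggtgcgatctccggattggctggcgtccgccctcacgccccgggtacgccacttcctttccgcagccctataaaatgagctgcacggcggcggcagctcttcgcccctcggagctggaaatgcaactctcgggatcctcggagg
Txnip: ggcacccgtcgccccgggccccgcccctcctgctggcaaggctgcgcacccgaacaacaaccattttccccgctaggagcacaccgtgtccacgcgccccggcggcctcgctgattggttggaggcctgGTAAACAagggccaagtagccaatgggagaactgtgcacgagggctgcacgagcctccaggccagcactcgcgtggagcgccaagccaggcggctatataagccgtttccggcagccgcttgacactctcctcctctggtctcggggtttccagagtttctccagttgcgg
Pdk4: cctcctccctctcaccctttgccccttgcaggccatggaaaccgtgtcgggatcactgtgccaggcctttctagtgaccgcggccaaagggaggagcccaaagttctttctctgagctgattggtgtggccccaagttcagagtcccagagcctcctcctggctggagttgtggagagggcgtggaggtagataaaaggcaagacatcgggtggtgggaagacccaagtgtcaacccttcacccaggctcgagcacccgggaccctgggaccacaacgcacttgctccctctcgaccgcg
A match of letters in a window is a description and not a binding site, and binding was not measured here.

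Foxo4, the deleted gene, was not above background on any array. Its probe read 4.75, 4.63 and 4.59 in WT, against 4.59, 4.70 and 4.42 in Foxo4_KO, with detection p from 0.168 to 0.903. The pools overlapped at background, so the genotype labels are not checked by these arrays, and the sources used here do not place the probe inside or outside the deletion.

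Foxo1 and Foxo3, the relatives that remain in the knockout, were above background in every pool and differed little between genotypes. Foxo1 probe 1 read 6.91, 6.33 and 6.24 in WT, against 6.80, 6.46 and 6.76 in Foxo4_KO. Foxo1 probe 2 read 7.47, 7.35 and 7.18 in WT, against 7.43, 7.55 and 7.22 in Foxo4_KO. Foxo3 probe 1 read 6.83, 6.57 and 6.75 in WT, against 7.08, 7.03 and 6.77 in Foxo4_KO. The genotypes overlapped for each Foxo1 probe, while Foxo3 was higher in Foxo4_KO in all 3 pairs of the same treatment, by 0.25, 0.45 and 0.01. The additive effect of genotype was 0.18 (SE 0.17) and 0.07 (SE 0.14) for the Foxo1 probes and 0.24 (SE 0.15) for Foxo3, none of which passed limma's test (Benjamini-Hochberg adjusted p = 0.757, 0.901 and 0.649). The other 3 Foxo3 probes were not above background on any array.

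**Figure D1:**
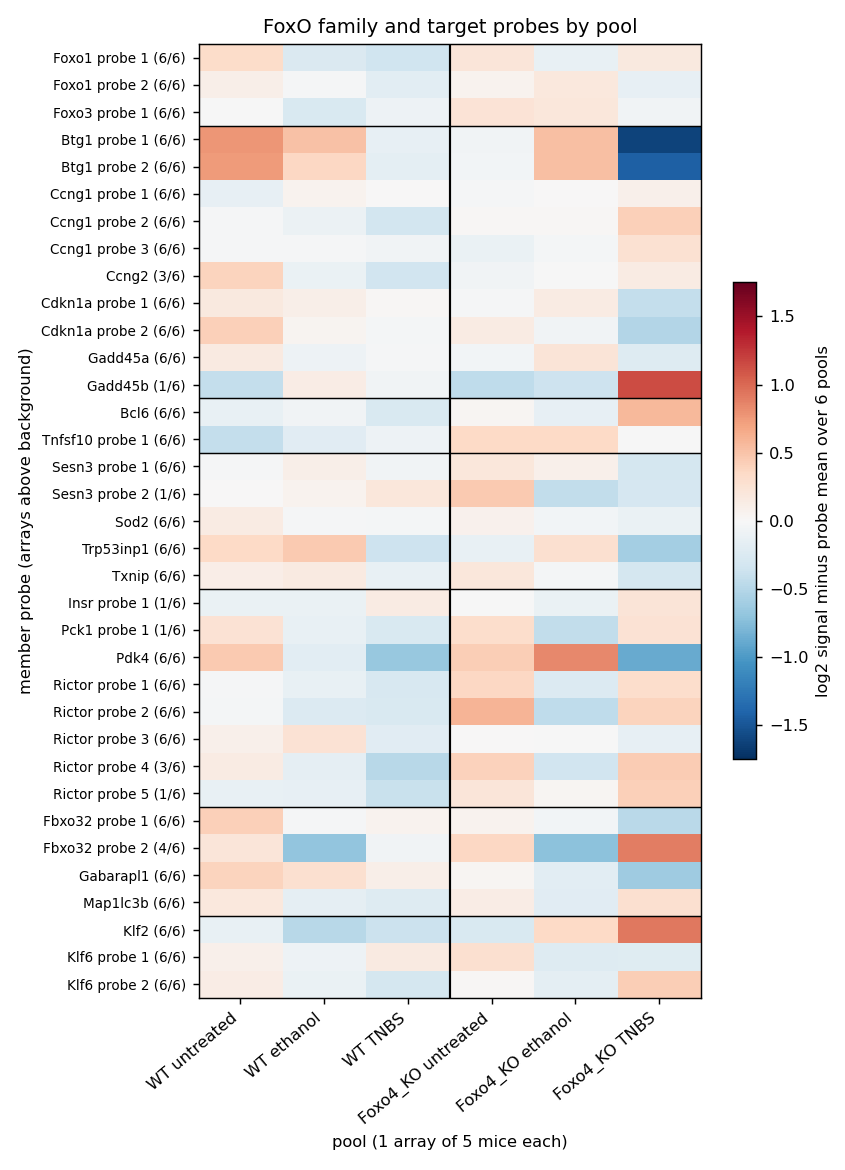
Log2 signal of each of the 35 tested member probes in the 6 pools, after subtracting the probe's own mean over the pools (blue lower, red higher). Rows are grouped by role and show in brackets the number of arrays above background, and the strongest colours lie in the Foxo4_KO TNBS pool, at Btg1 (7.87 by both probes) and Gadd45b (6.39). Gadd45b was above background in that pool alone.

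Between genotypes no member passed the test. In limma's additive model 0 of 35 member probes had an adjusted p under 0.05 (lowest 0.34), where 0.102% of all tested probes did, and the count was 0 under each of 15 other settings. At an unadjusted p under 0.05, Tnfsf10 probe 1, Rictor probe 5 and Klf2 were higher (3 of 35, against 5.74% of all probes) and Btg1 probe 1 and Gabarapl1 lower (2 of 35, against 4.21%). These shares are near the background, and Rictor probe 5 was above background in 1 Foxo4_KO pool and in no WT pool. The median effect of the member probes was 0.07 and that of all probes −0.03, with members between −0.76 and 0.66.

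Signs over the 3 matched pairs gave a like picture. Foxo3 probe 1, Ccng1 probe 2, Tnfsf10 probe 1 and Rictor probe 5 were higher in Foxo4_KO in all 3 pairs (4 of 35, against 13.0% of all probes). Cdkn1a probe 2, Sod2, Trp53inp1, Fbxo32 probe 1 and Gabarapl1 were lower in all 3 (5 of 35, against 18.8%). All Foxo4_KO pools lay above all WT pools for Ccng1 probe 2, Tnfsf10 probe 1 and Rictor probe 5 (3 of 35, against 5.69%), and below them for Gabarapl1 (1 of 35, against 7.96%). For Rictor probe 5 this order is among values at background in 5 of the 6 pools. The median size of the difference was 0.49 for member probes and 0.27 for all probes in the TNBS pair. It was 0.18 and 0.19 in the untreated pair and 0.14 and 0.18 in the ethanol pair. Gadd45b, Insr probe 1, Pck1 probe 1 and Rictor probe 5 entered through the Foxo4_KO TNBS pool alone. All but Insr probe 1 lay above the members' TNBS median, so the filter favoured a high value there. Genes with several probes also count by each probe. A wider spread of the members as genes is thus not established.

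**Figure D2:**
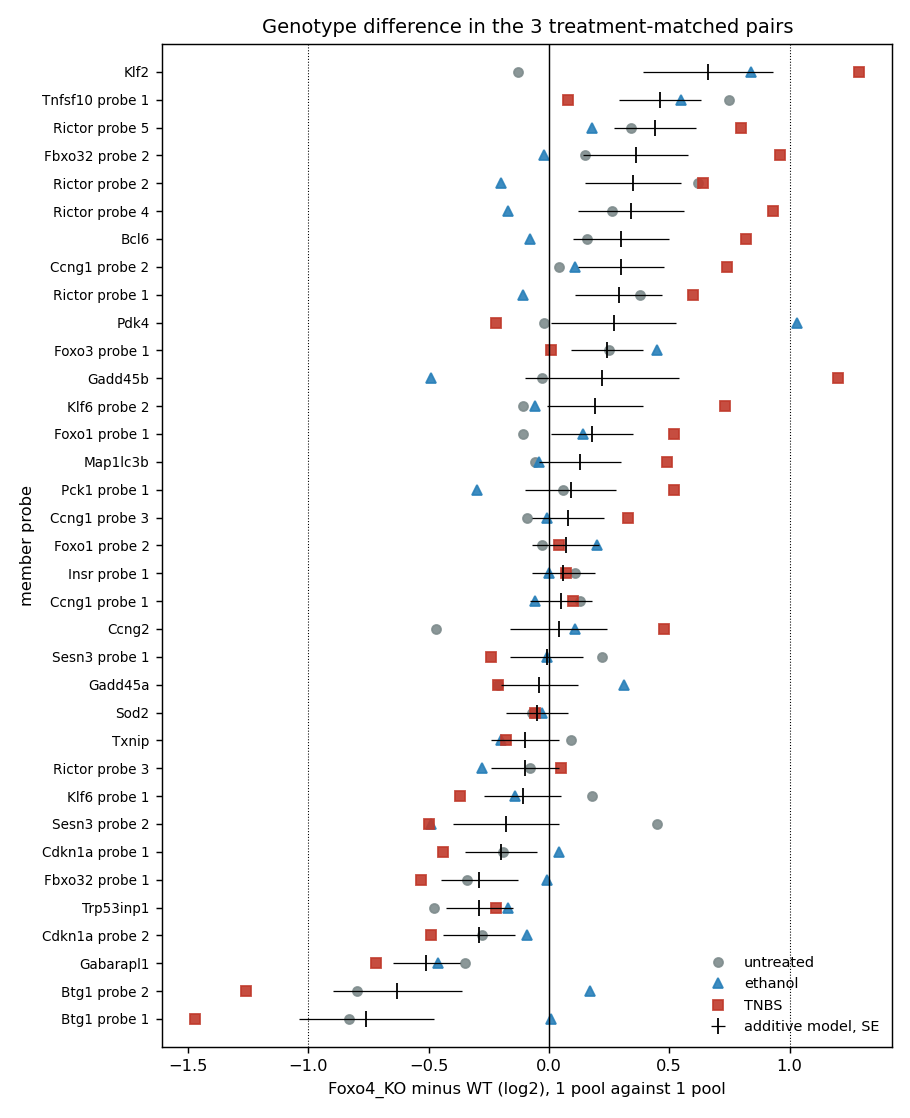
Difference between Foxo4_KO and WT (log2) for the 35 tested member probes, with 1 symbol for each treatment and a black tick with a bar for limma's additive effect and its standard error. TNBS pairs spread widest, from -1.47 at Btg1 probe 1 to 1.29 at Klf2, and dotted lines mark a 2-fold difference.

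Of the cell cycle genes, 10 probes of 6 members were tested. The additive genotype effect was above 0 for 5 of them and below 0 for 5. Btg1, which restrains proliferation, had the largest differences of all members. Its probe 1 read 10.26, 10.00 and 9.34 in WT, against 9.43, 10.01 and 7.87 in Foxo4_KO. Its probe 2 read 10.05, 9.66 and 9.13 in WT, against 9.25, 9.83 and 7.87 in Foxo4_KO. Both probes were lowest in the Foxo4_KO TNBS pool and next lowest in the WT TNBS pool, and in the ethanol pools Foxo4_KO was higher by 0.01 and 0.17. Foxo4_KO was 2.77-fold and 2.40-fold below WT in TNBS pools and 1.78-fold and 1.75-fold below in untreated pools. The genotype effect was −0.76 (SE 0.28, adjusted p = 0.45 in limma) and −0.63 (SE 0.27, adjusted p = 0.522), and it was −0.41 and −0.32 without either TNBS pool and −1.15 and −1.03 without either ethanol pool. Btg1 probe 3 stayed at background throughout.

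Cdkn1a, the cyclin-dependent kinase inhibitor also driven by the p53 protein, read 11.30, 10.92 and 10.85 in WT, against 11.02, 10.82 and 10.36 in Foxo4_KO by probe 2. By probe 1 it read 10.90, 10.84 and 10.75 in WT, against 10.71, 10.88 and 10.31 in Foxo4_KO. For both probes the Foxo4_KO TNBS pool was lowest, and the genotypes overlapped. The genotype effects were −0.29 (SE 0.15) and −0.20 (SE 0.15) in that order, neither past the test.

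Gadd45b, a stress-induced regulator of growth arrest, was above background in 1 pool. It read 4.83, 5.38 and 5.19 in WT, against 4.80, 4.89 and 6.39 in Foxo4_KO, and that last pool alone was above background. It was at least 1.39-fold higher there than in the WT TNBS pool, at least 1.73-fold higher than in the Foxo4_KO ethanol pool and at least 1.47-fold higher than in the untreated Foxo4_KO pool, each bound set by the lowest signal above background on the dimmer array. Its relative Gadd45a read 9.20, 8.95 and 9.02 in WT, against 8.99, 9.26 and 8.81 in Foxo4_KO, with overlap. The neutrophil marker sum was also highest in that pool, at 4041 against 61 to 377 in the other pools, and its part in the Gadd45b value was not tested.

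The cyclins G differed little. Over the 3 detected probes of Ccng1, a target of the p53 protein, genotype effects were 0.05, 0.30 and 0.08. Probe 2 read 7.01, 6.93 and 6.71 in WT, against 7.05, 7.05 and 7.45 in Foxo4_KO, without overlap, the closest pools being the untreated ones. Ccng2, a brake on the cell cycle, was above background on 3 arrays and read 6.24, 5.73 and 5.51 in WT, against 5.78, 5.84 and 5.99 in Foxo4_KO, with overlap. Both probes of Cdkn1b, another kinase inhibitor, and the probe of Rbl2, a relative of the retinoblastoma protein, were not above background on any array.

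Of the death genes, Tnfsf10 and Bcl6 were detected. Tnfsf10, the death ligand TRAIL, read 6.48, 6.70 and 6.81 in WT, against 7.24, 7.24 and 6.89 in Foxo4_KO by probe 1. All Foxo4_KO pools were above all WT pools, and the TNBS pair was closest, with Foxo4_KO higher by 0.08. The genotype effect was 0.46 (SE 0.17), with an unadjusted p of 0.0354 and an adjusted p of 0.463 in limma. Tnfsf10 is also known as an interferon-induced gene. The 7 detected genes of an interferon list of 12 were higher in Foxo4_KO in all 3 pairs, against 13.0% of all probes. Irf7 was nearly level in the TNBS pair, at 8.63 in WT and 8.64 in Foxo4_KO. Past limma's test were Ifit2 at 2.55 (Benjamini-Hochberg adjusted p = 0.0105), Rsad2 at 1.95 (adjusted p = 0.0306) and Mx2 at 1.73 (adjusted p = 0.0379). Mx2 was above background in the Foxo4_KO pools alone and Ifit3 in 1 of them, so both entered through the genotype where they were high and their sizes are set against background. The part of that response in the Tnfsf10 value was not tested. Bcl6, a transcriptional repressor, read 7.47, 7.54 and 7.34 in WT, against 7.63, 7.46 and 8.17 in Foxo4_KO, highest in the Foxo4_KO TNBS pool and overlapping elsewhere. Bcl2l11 and Bbc3, which encode the death proteins Bim and Puma, were not above background on any array, nor was Tnfsf10 probe 2.

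The stress defence genes had a median genotype effect of −0.10 over the 5 tested probes of 4 members, where that of all probes was −0.03. Their effects ran from −0.29 at Trp53inp1 to −0.01 at Sesn3 probe 1, and none passed the test. Trp53inp1, a stress-induced partner of p53, read 9.25, 9.35 and 8.53 in WT, against 8.77, 9.18 and 8.31 in Foxo4_KO. It differed by −0.48, −0.17 and −0.22 between Foxo4_KO and WT in the 3 pairs, although the groups overlapped, and its genotype effect was −0.29 (SE 0.14). Txnip, which binds thioredoxin and limits glucose uptake, read 13.35, 13.39 and 13.10 in WT, against 13.43, 13.19 and 12.92 in Foxo4_KO. Sod2, the mitochondrial superoxide dismutase, stayed between 9.99 and 10.24 over the 6 pools. Sesn3, a sestrin that restrains mTORC1, was between 7.45 and 7.96 by probe 1, with overlap between the genotypes. Sesn3 probe 2 was above background only in the untreated Foxo4_KO pool, and the probe of Cat, catalase, on no array.

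Of the metabolic genes, Pdk4, which blocks pyruvate oxidation in fasting, varied most. It read 7.62, 6.98 and 6.51 in WT, against 7.60, 8.01 and 6.29 in Foxo4_KO. Foxo4_KO was 2.05-fold above WT in the ethanol pair, while the differences were −0.02 in the untreated and −0.22 in the TNBS pair. The genotype effect was 0.27 (SE 0.26, adjusted p = 0.774 in limma). The smooth muscle sum was 20689 in that Foxo4_KO ethanol pool and 3343 in the WT ethanol pool. In the TNBS pair it was 17851 in Foxo4_KO, where Pdk4 was lowest at 6.29, and 8386 in WT, where Pdk4 read 6.51. The part of smooth muscle in the Pdk4 values was not tested. More cells of a type and more RNA per cell cannot be told apart in pooled tissue.

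Rictor, a core subunit of mTORC2, had 9 probes, of which 5 were above background on at least 1 array. Probes 1, 2 and 4 had like profiles, with the highest values in the untreated and TNBS pools of Foxo4_KO mice. Probe 2 read 7.31, 7.10 and 7.08 in WT, against 7.93, 6.90 and 7.73 in Foxo4_KO. Probe 1 read 7.03, 6.92 and 6.76 in WT, against 7.41, 6.81 and 7.35 in Foxo4_KO. Probe 4, above background on 3 arrays, read 5.62, 5.32 and 4.99 in WT, against 5.88, 5.15 and 5.93 in Foxo4_KO. Probe 3 did not share that shape. It read 8.52, 8.69 and 8.24 in WT, against 8.44, 8.42 and 8.29 in Foxo4_KO, with a genotype effect of −0.10 against 0.29, 0.35 and 0.34 for probes 1, 2 and 4. The platform annotation ties probes 3 and 5 to the reference transcript and probes 1, 2 and 4 to separate cDNA clones, and which transcripts they measure was not tested. Probe 5, above background only in the Foxo4_KO TNBS pool, read 5.20, 5.18 and 4.93 in WT, against 5.54, 5.36 and 5.74 in Foxo4_KO, with an effect of 0.44 (SE 0.17, adjusted p = 0.467 in limma).

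Pck1, the gluconeogenic enzyme, was above background only in the Foxo4_KO TNBS pool by probe 1, which read 5.49, 5.11 and 4.97 in WT, against 5.55, 4.81 and 5.49 in Foxo4_KO. Pck1 probe 2 read 4.79 to 5.31 and was not above background on any array. Insr, the insulin receptor, was above background in that same pool alone by probe 1, at 5.45 against 5.11 to 5.38 elsewhere. Both probes thus lay at the edge of detection. Pik3ca, a catalytic subunit of phosphoinositide 3-kinase, was not above background on any array.

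All 3 genes of atrophy and autophagy were detected. Gabarapl1, which takes part in autophagosome formation, read 7.97, 7.86 and 7.68 in WT, against 7.62, 7.40 and 6.96 in Foxo4_KO. Every Foxo4_KO pool was below every WT pool, and within each genotype the TNBS pool was lowest. The genotype effect was −0.51 (SE 0.14), the lowest p of any member probe in that contrast, with an unadjusted p of 0.0116 and an adjusted p of 0.34 in limma. Leaving out each pool in turn gave −0.59 to −0.41. Map1lc3b, an autophagosome protein of the same family, read 8.81, 8.46 and 8.40 in WT, against 8.75, 8.42 and 8.90 in Foxo4_KO and did not share that shape.

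Fbxo32, the ubiquitin ligase atrogin-1 of wasting muscle, gave different profiles by its 2 probes. Probe 1 read 6.92, 6.48 and 6.56 in WT, against 6.57, 6.46 and 6.03 in Foxo4_KO. Probe 2 read 6.47, 5.57 and 6.20 in WT, against 6.62, 5.55 and 7.16 in Foxo4_KO, with both ethanol pools not above background. In the Foxo4_KO TNBS pool probe 1 had its lowest value and probe 2 its highest, so no direction is given for the gene. Genotype effects were −0.29 (SE 0.16) and 0.36 (SE 0.22).

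Klf2, a regulator that keeps T cells and endothelium quiescent, read 6.48, 6.13 and 6.24 in WT, against 6.34, 6.96 and 7.53 in Foxo4_KO. Its untreated pair differed by −0.13, and Foxo4_KO was 1.78-fold above WT in ethanol and 2.44-fold above in TNBS pools. The genotype effect was 0.66 (SE 0.27), the highest of any member probe, with an adjusted p of 0.501 in limma, and it was 0.35 without either TNBS pool and 1.06 without either untreated pool. Summed endothelial markers (5 of 6 detected, Tek not) were 492, 388 and 476 in WT, against 519, 724 and 839 in Foxo4_KO. T cell markers (3 of 6 detected, Cd4 not) summed to 282, 122 and 121 in WT, against 483, 369 and 252 in Foxo4_KO. Both sums were higher in Foxo4_KO in each pair. In the ethanol pair Kdr was lower in Foxo4_KO (5.48 against 5.78), and the other detected endothelial markers were higher. The T cell sum, of Cd3d, Cd3e and Cd3g, fell across the Foxo4_KO pools in the order given, while Klf2 rose. The part of either cell type in the Klf2 value was not tested. Klf6, a relative induced by injury, read 12.39, 12.14 and 11.95 in WT, against 12.28, 12.08 and 12.68 in Foxo4_KO by probe 2, and stayed between 6.60 and 7.10 by probe 1.

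**Figure D3:**
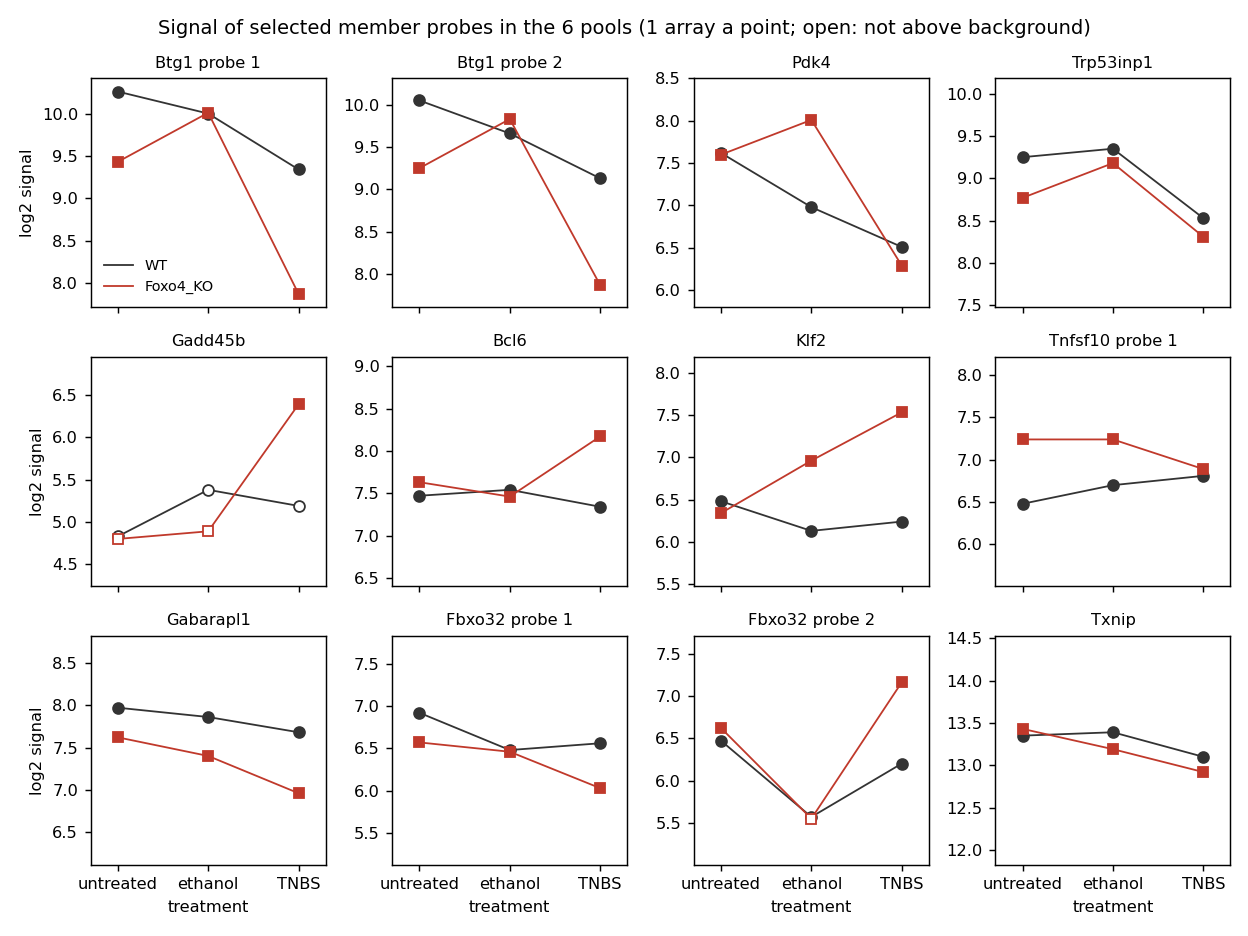
Log2 signal of 12 member probes in the untreated, ethanol and TNBS pools (1 array a point, WT black circles, Foxo4_KO red squares, open symbols not above background), each panel spanning its own range of levels. Btg1 and Pdk4 drop from ethanol to TNBS in both genotypes and further in Foxo4_KO, Klf2 reads 6.34, 6.96 and 7.53 in Foxo4_KO, and the 2 Fbxo32 probes run opposite in the Foxo4_KO TNBS pool.

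TNBS was compared with its vehicle to describe the differences that go with the hapten. Tissue content also differed in both genotypes. Ileal enterocyte marker sums (4 of 6 detected) were 553, 908 and 5587 in WT, against 929, 871 and 8650 in Foxo4_KO. Paneth cell and adipocyte sums were likewise highest with TNBS in each genotype. Tissue content and treatment cannot be told apart in this contrast. No member passed limma's test for TNBS minus ethanol, with 0 of 35 called (lowest adjusted p 0.456) against 0.145% of all probes, and 0 under each of 15 other settings. At an unadjusted p under 0.05, Btg1 by both probes, Trp53inp1 and Pdk4 were lower (4 of 35, against 3.35% of all probes) and Fbxo32 probe 2 was higher (1 of 35, against 3.79%). The median over members was 0.01 and over all probes 0.00.

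Trp53inp1 differed by nearly the same amount in both genotypes, −0.81 in WT and −0.87 in Foxo4_KO, with both TNBS pools below the other 4. Its additive effect was −0.84 (SE 0.17), with an unadjusted p of 0.00256 and an adjusted p of 0.456 in limma, and leaving out each pool in turn gave −0.94 to −0.75. Btg1 differed by −0.66 in WT and −2.15 in Foxo4_KO by probe 1, and by −0.52 and −1.96 by probe 2, which is 4.43-fold and 3.89-fold lower in Foxo4_KO. The additive effects were −1.40 (SE 0.34, adjusted p = 0.608 in limma) and −1.24 (SE 0.34, adjusted p = 0.652), and they were −0.87 and −0.77 without the Foxo4_KO TNBS pool, −0.82 and −0.64 without the Foxo4_KO ethanol pool, and as low as −1.99 and −1.84 without the WT ethanol pool. Pdk4 differed by −0.47 in WT and −1.72 in Foxo4_KO, where it was 3.29-fold lower. Its additive effect was −1.09 (SE 0.31, adjusted p = 0.686 in limma), −0.73 without the Foxo4_KO TNBS pool, −0.52 without the Foxo4_KO ethanol pool and −1.67 without the WT ethanol pool.

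Both TNBS pools lay below the other 4 at 8 of 35 member probes, against 8.32% of all probes, and above them at 1, against 9.24%. That 1 was Insr probe 1, which was above background in the Foxo4_KO TNBS pool alone. The 8 were both Btg1 probes, Trp53inp1, Pdk4, Txnip, Foxo1 probe 2, Sesn3 probe 1 and Rictor probe 3. For Txnip the step from ethanol to TNBS was −0.29 in WT and −0.27 in Foxo4_KO. No member probe differed by 0.5 or more in opposite directions in the 2 genotypes.

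In the Foxo4_KO TNBS pool 4 of 35 member probes were at least 0.5 above the other 5 pools, namely Gadd45b, Bcl6, Fbxo32 probe 2 and Klf2, against 3.40% of all probes. Gadd45b was tested only because this pool was above background, so its place among the 4 was favoured by the filter. The Btg1 probes were at least 0.5 below them (2 of 35, against 3.24%). The response difference, which is the TNBS step in Foxo4_KO minus that in WT, was at least 1 for Gadd45b (1.69) and Rictor probe 4 (1.10), against 2.44% of all probes. It was −1 or lower for Btg1 (−1.49 and −1.44) and Pdk4 (−1.25), 3 of 34 probes against 3.08%. No residual degree of freedom is left for that difference, so it has no test. For Pdk4 the genotypes differed by 1.03 in the ethanol pair and by −0.22 in the TNBS pair, so its value comes mostly from the ethanol pair. Each value also includes the Foxo4_KO TNBS pool. For Gadd45b and Rictor probe 4 that pool was the only one of the 4 compared above background, so these sizes are uncertain. Paneth cell, neutrophil and ileal enterocyte marker sums were also highest in that pool, the last at 8650 against 553 to 5587 elsewhere, and their part in these values was not tested.

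**Figure D4:**
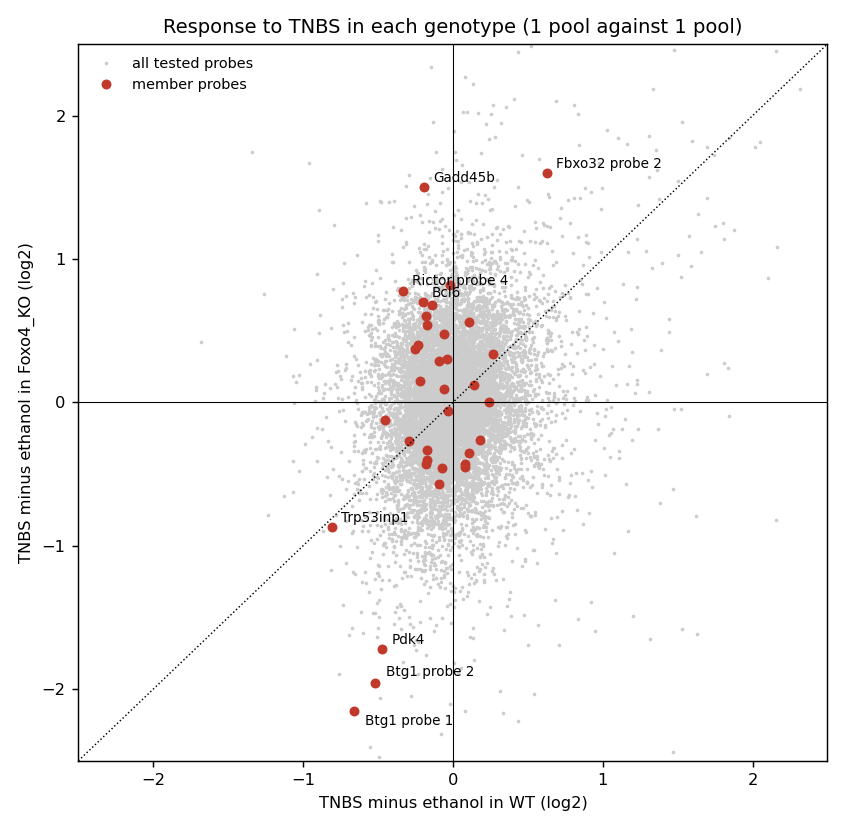
TNBS minus ethanol in WT (horizontal) against the same difference in Foxo4_KO (vertical), in log2, for the member probes (red) and all tested probes (grey). Btg1 and Pdk4 lie far below the dotted line of equal response and Gadd45b and Fbxo32 probe 2 above it, Trp53inp1 lies near it, and 45 grey probes fall outside the axes at 2.5. Gadd45b was above background in the Foxo4_KO TNBS pool alone, so its place rests partly on background values.

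Single pools at least 2-fold apart by their measured log2 values were few in WT. These counts and their shares of all probes take values at background as measured, and for Gadd45b, whose dimmer pool was at background in each pair, the bounds given above are under 2-fold, so a 2-fold difference is not established. Between TNBS and ethanol in WT, 0 member probes were 2-fold lower (0.156% of all probes) or higher (1.19%). In Foxo4_KO, both Btg1 probes and Pdk4 were at least 2-fold lower (3 of 34, against 2.34%) and Gadd45b (at least 1.73-fold) and Fbxo32 probe 2 (at least 2.94-fold) had measured values 2-fold higher (2 of 34, against 2.41%). Between genotypes 0 of 31 were 2-fold apart in untreated pools (1.11% of all probes higher and 0.585% lower). In ethanol pools Pdk4 was higher (1 of 28, against 3.87%) and none lower (0.571%). In TNBS pools the measured values of Gadd45b (at least 1.39-fold) and Klf2 were higher (2 of 34, against 3.04%) and both Btg1 probes lower (2 of 34, against 1.59%).

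Ethanol was compared with no treatment to show the effect of the vehicle. No member passed limma's test (0 of 35, lowest adjusted p 0.999), and neither did any other probe (0%). At an unadjusted p under 0.05, Fbxo32 probe 2, Rictor probe 2 and Pck1 probe 1 were lower (3 of 35, against 2.14% of all probes) and none was higher (2.21%). Pck1 probe 1 was not above background in any of the 4 pools compared. Fbxo32 probe 2 was lower by at least 1.62-fold in WT and at least 2.02-fold in Foxo4_KO, while its probe 1 differed by −0.44 and −0.11. Rictor probe 2 differed by −0.21 in WT and was 2.03-fold lower in Foxo4_KO, where these 2 probes were the only members 2-fold lower (2 of 31, against 0.381%), with none 2-fold higher (1.67%). In WT 0 of 30 were 2-fold lower (0.670%) or higher (0.689%). Both untreated pools lay above the other 4 for Foxo1 probe 1, Cdkn1a probe 2, Sod2, Pck1 probe 1 and Fbxo32 probe 1 (5 of 35, against 8.04% of all probes) and below them for Ccng1 probe 1 and Gadd45b (2 of 35, against 7.93%). The Xist difference between these pools, given above, moves with this contrast, and its part was not tested.

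Against untreated mice, the TNBS effect had a median of −0.22 over the 35 member probes, where that of all probes was −0.01. The median was −0.30 without the Foxo4_KO TNBS pool and −0.10 without the WT TNBS pool. With median scaling between arrays it was −0.07, where that of all probes was 0.11. No member passed limma's test (0 of 35, lowest adjusted p 0.315, against 0.298% of all probes). At an unadjusted p under 0.05, both Btg1 probes, Cdkn1a probe 2, Trp53inp1, Pdk4 and Gabarapl1 were lower (6 of 35, against 5.21% of all probes) and Gadd45b was higher (1 of 35, against 5.97%), with both untreated pools at background. Pdk4 was 2.16-fold lower in WT (1 of 30, against 0.874%) and 2.48-fold lower in Foxo4_KO, with an additive effect of −1.21 (SE 0.31) that was −0.85 without the Foxo4_KO TNBS pool. Btg1 was 1.90-fold and 1.89-fold lower in WT and 2.96-fold and 2.61-fold lower in Foxo4_KO, where these were the 3 member probes at least 2-fold lower (against 1.66%). Klf2 was 2.27-fold higher in Foxo4_KO, beside Gadd45b by its measured value (2 of 35, against 3.73%), for which the bound is at least 1.47-fold. Klf2 differed by −0.24 in WT, where none was 2-fold higher (1.74%). The Cdkn1a effect was −0.55 (SE 0.18) and that of Gabarapl1 −0.47 (SE 0.18). Of 10 output genes of the clock and of glucocorticoids 9 were tested, with a median of −0.36 in the same contrast. Only Nr1d1, a clock repressor, passed limma's test, at −1.53 (adjusted p = 0.0481). Dbp was at −1.40, while Per2 (0.31), Fkbp5 (0.15) and Zbtb16 (0.02) were above 0. Time of sampling and treatment cannot be told apart.

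The upstream pathway and other genes of the FoxO network were read as lists. Of the 22 genes of PI3K-AKT signalling 18 were tested, and 0 passed limma's adjusted test in any contrast, with a median genotype effect of −0.06 and none at an unadjusted p under 0.05. The largest genotype effects there were those of Inpp5d, the phosphatase SHIP1 of blood cells (0.42), Sgk1, a kinase that also phosphorylates FoxO proteins (−0.31), Irs1, the insulin receptor substrate (−0.26), and Tsc2, a brake on mTORC1 (−0.26). For TNBS minus ethanol they were those of the growth factor Igf1 (0.56) and the kinase Akt2 (0.41). Igf1 was above background in the Foxo4_KO TNBS pool alone and Inpp5d on 3 arrays, so the sizes and ranks of both rest partly on background values.

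Of 22 partners and modifiers of FoxO proteins 19 were tested and 0 passed the adjusted test, with a median genotype effect of −0.02. Prmt1, an arginine methyltransferase that modifies FoxO1, had the largest genotype effect at −0.72 (SE 0.31, adjusted p = 0.522 in limma), followed by the deacetylase Sirt1 (−0.38), the kinase Ikbkb (0.37) and the 14-3-3 protein Ywhaq (−0.28). Prmt1 read 9.09, 9.58 and 9.67 in WT, against 9.31, 8.64 and 8.24 in Foxo4_KO, lower in the ethanol and TNBS pools and higher in the untreated one. For TNBS minus ethanol the largest were Crebbp, an acetyltransferase (1.04, unadjusted p 0.0056, adjusted p = 0.607), and the 14-3-3 protein Ywhaz (0.59). Ywhaz was above background in the Foxo4_KO TNBS pool alone, Sirt1 on 3 arrays and Crebbp on 4, so their sizes and ranks rest partly on background values.

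Of 30 further FoxO targets 18 were tested and 0 passed the adjusted test, with a median genotype effect of −0.13. Ccr7, a homing receptor of lymphocytes that FoxO1 controls in mouse T cells, read 5.16, 5.13 and 5.17 in WT, against 6.03, 5.79 and 5.71 in Foxo4_KO, at 0.69 (SE 0.14, adjusted p = 0.179 in limma). It was above background in the Foxo4_KO pools alone, through which it entered the tests, so the WT values are background and the size is uncertain. Ppargc1a, a coactivator of mitochondrial genes, read 8.22, 7.95 and 7.86 in WT, against 7.77, 7.10 and 7.41 in Foxo4_KO, without overlap, at −0.58 (SE 0.15, adjusted p = 0.294). Cyclin D1 (Ccnd1), which FoxO proteins repress, was at 0.37 for genotype and 0.43 for TNBS minus ethanol, and the peroxidase Prdx3 at −0.36 and −0.59. T cell marker sums were higher in Foxo4_KO in each pair, as given beside Klf2, and their part in the Ccr7 value was not tested. Of 12 p53 targets outside the members 7 were tested and 0 passed in any contrast, with genotype effects from −0.24 (Mdm2) to 0.15 (Perp).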

How the data were processed

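Per the labels' protocols, total RNA (Trizol, then column clean-up and DNase I) was turned into biotinylated cRNA. The deposited unnormalized table held mean bead intensity with no background subtraction. Beside it stood a detection value that the file headers call a p-value, although it rose with signal (rank correlation 0.997 to 0.998), and 1 minus this deposited value was used as the p. A further table of the authors held intensity values after quantile normalization on the linear scale, as their shared distribution shows, with the probe identifiers. The tables were joined by signal profile over the 6 arrays, for 46570 of 46632 probes (99.87%), and 3490 of 3532 targets with a checkable Entrez number matched (98.8%), against 2 after shuffling. The sources used here name no scanner or image software. Gene names come from the platform annotation.

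The neqc method of limma 3.58.1 (R 4.3.3) corrected background by detection p and added an offset of 16. Tested were the 11749 probes with 1 symbol and detection p under 0.01 on at least 1 array. The additive model of treatment and genotype left 2 residual degrees of freedom, moderated with 4.17 prior ones (prior SD 0.194). P-values are two-sided, with Benjamini-Hochberg adjustment over all tested probes and a threshold of 0.05, and they measure departures from additivity rather than a spread between mice. Single pools were compared by log2 difference, with 2-fold as the threshold. Where the dimmer pool was not above background, the fold is a lower bound. The fit was tested on simulated data that followed the additive model. It recovered most genotype changes of 2-fold there and few that were much smaller. In the real arrays some larger genotype effects did not pass limma's test. Examples are the Paneth cell marker Defa31 at 3.12 (adjusted p = 0.0625) and the T cell marker Cd3d at 1.14 (adjusted p = 0.114). Counts of 0 thus say little of small effects and do not exclude effects of 2-fold. Tables and plots used Python 3.11.15 with matplotlib 3.10.9, scipy 1.17.1, pandas 2.3.3 and numpy 2.4.6.

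The members, their roles and the lists were chosen with earlier results of these data known. All 6 values are given for the FoxO factors and for each detected member probe with an additive effect of at least 0.5 (log2) or a 2-fold difference between single pools, with its other detected probes. Values of Tnfsf10, Bcl6, Txnip, Sod2, Sesn3, Insr, Ccng1, Ccng2, Gadd45a, Klf6 and Map1lc3b, of further Rictor probes, and of Ccr7, Ppargc1a and Prmt1 in each pool, were chosen after they were seen. Of the pathway lists, up to 4 genes with the largest genotype effect and 2 for TNBS minus ethanol were named. The alternatives were the authors' values, median scaling, no background correction, another offset, other probe filters, a trended prior, 1 probe per gene and each pool left out.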

Additional observations from a re-analysis of the deposited data

How the results depend on the processing

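The 20 named member effects were recomputed under up to 15 other settings, 287 values in all, of which 286 kept their direction and side of the threshold (lowest adjusted p 0.0728). The exception was Gadd45b for TNBS minus ethanol, which was −0.07 without the Foxo4_KO TNBS pool, the only array where it was above background, and up to 1.39 without another pool. The values are not independent of each other. Other probe filters, the trended prior and 1 probe per gene leave the effect itself unchanged and alter only its p-value. For genotype, leaving out either pool of a pair gives the same effect. No paired analysis was possible because each group had 1 pool and the replicate numbers in the labels count arrays.

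Counts of called probes over the whole array moved more. Median scaling between arrays gave 156 for genotype in place of 12, 3 for ethanol against untreated in place of 0, 51 for TNBS against ethanol in place of 17, and 138 for TNBS against untreated in place of 35. By that scaling the medians of the member probes and of all probes were 0.16 and 0.08 for genotype, 0.16 and 0.16 for TNBS against ethanol, and −0.07 and 0.11 for TNBS against untreated, so single effects are read relative to these. For genotype an offset of 50 gave 24, no detection filter 1, and a trended and robust prior 47. For TNBS against ethanol, probes detected on all 6 arrays gave 4, no filter 0 and all detected probes 30. For TNBS against untreated, probes detected on all 6 arrays gave 13 and no filter 0. Leaving out each pool in turn gave 0 to 10 for genotype, 0 to 1 and 0 to 22 for those vehicle and hapten contrasts, and 1 to 79 for TNBS against untreated. The causes were not tested.

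Member probes 2-fold apart by measured values between genotypes numbered 5, with 2 by the authors' values, 2 with no background correction, 2 at an offset of 50 and 10 by median scaling. Between treatments they numbered 7, with 4 under each of the first 3 of these settings. Those higher in Foxo4_KO in all 3 pairs went from 4 to 9 by median scaling and 7 with no filter, and those lower from 5 to 2 and 8. Probes with a response difference of at least 1 went from 5 to 2 by the authors' values, 8 by median scaling, 2 with no background correction, 3 at an offset of 50 and 3 among probes detected on all arrays. Probes near background carry the least certain values.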
